A study of Saccharomyces cerevisiae with 6 samples.

Results

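The silencing factors of budding yeast examined here are 10 genes, *SIR1*, *SIR2*, *SIR3*, *SIR4*, *RAP1*, *RIF1*, *RIF2*, *DOT1*, *SAS2* and *ORC1*. They were taken by name from a fixed list, which was chosen with earlier results of these data known. Each is read by a single probe set of the Affymetrix array, so they account for 10 of the 5498 *S. cerevisiae* probe sets (5449 genes) that were tested. None of these probe sets is of the kind that the array maker marks as shared between similar sequences. The study replaced lysine 37 of histone H2B by alanine, and the arrays compare transcript levels in YKG007 cells, which express H2B K37A (3 cultures), with those in YKG001 cells, which express wild-type H2B (3 cultures). The cultures were grown in YPD to an OD600 of 1.0, and each gave RNA for 1 array. The labels call the source acid-extracted histones but the molecule total RNA, and RNA was taken to be what was measured. Both strains are *MAT*a and carry the deletions (hta1-htb1)D::LEU2 and (hta2-htb2)D::TRP1 and the markers his3D200, leu2D1, lys2-128d, lys2D1, trp1D63 and ura3-52. Their H2A and Flag-tagged H2B therefore come from a plasmid alone, pKG2 (HTA1-Flag-htb1 (K37A), HIS3) in the mutant and pZS145 (HTA1-Flag-HTB1, HIS3) in the wild type, and each group is a single strain.

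Silencing in budding yeast keeps whole stretches of chromosome inactive, next to the telomeres, at the mating cassettes HML and HMR and within the ribosomal DNA. The DNA-binding protein Rap1 and the origin recognition complex mark telomeres and silencers and recruit the Sir proteins. Sir2 removes acetyl groups from histone tails, and Sir3 and Sir4 bind the deacetylated nucleosomes and spread along them. Acetylation of histone H4 by Sas2 and methylation of histone H3 by Dot1 hinder Sir3 binding and so limit where silent chromatin can form.

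The deposited value is a log2 signal per probe set and array. All 10 silencing factors lay above 6.29, the 95th percentile of 1746 background probe sets. These carry a gene name that has no match in the *S. cerevisiae* gene table, and the species of each was not checked. The median signal of the *S. cerevisiae* probe sets was 11.05 to 11.10 on all 6 arrays, and Pearson's r over these probe sets, which are not independent replicates, was 0.994 to 0.998 within each strain. K37A replicate 3 was the array least like the wild type, with r of 0.984 to 0.989, whereas K37A replicate 1 correlated with the wild-type arrays (0.994 to 0.996) about as closely as with K37A replicate 3 (0.994). These are bulk cultures, in which a change in every cell and a change in the share of cells cannot be told apart. *HTB1*, the plasmid-borne H2B gene, had log2 signals of 14.43, 14.43 and 14.39 in K37A cells and 14.47, 14.49 and 14.48 in wild-type cells, but both plasmids carry the gene, so its level does not check the genotype. *HTB2*, deleted in both strains by their labels, still read 10.50 in K37A cells and 10.49 in wild-type cells, and the source of that signal was not tested. The number of arrays limits the precision of every value below, and permuting 3 arrays against 3 exactly cannot give a two-sided p under 0.1 for any single gene.

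Of the 10 silencing factors, 1 passed an adjusted p of 0.05 from limma (Benjamini-Hochberg over all 5498 probe sets), and this was *SAS2*, higher in H2B K37A cells. Over all tested probe sets 14.5% passed, 6.44% higher and 8.08% lower in the mutant, so the count among the silencing factors was near the background. None of the 10 reached the 2-fold cutoff that the study used, which 0.364% of all probe sets did. The log2 differences ran from -0.15 for *SIR3* to 0.39 for *RAP1*, with a median of 0.03, against a median of 0.0020 over all probe sets, and the median size of the difference was 0.09 in both. The arrays of the strains did not overlap for 3 of the 10, *RAP1*, *SAS2* and *SIR3*, where 42.1% of all probe sets showed this. Every silencing factor had a 95% confidence interval inside 2-fold, and 9 of 10 had it inside 1.5-fold, which held for 98.4% and 92.1% of all probe sets.

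**Figure D1:**
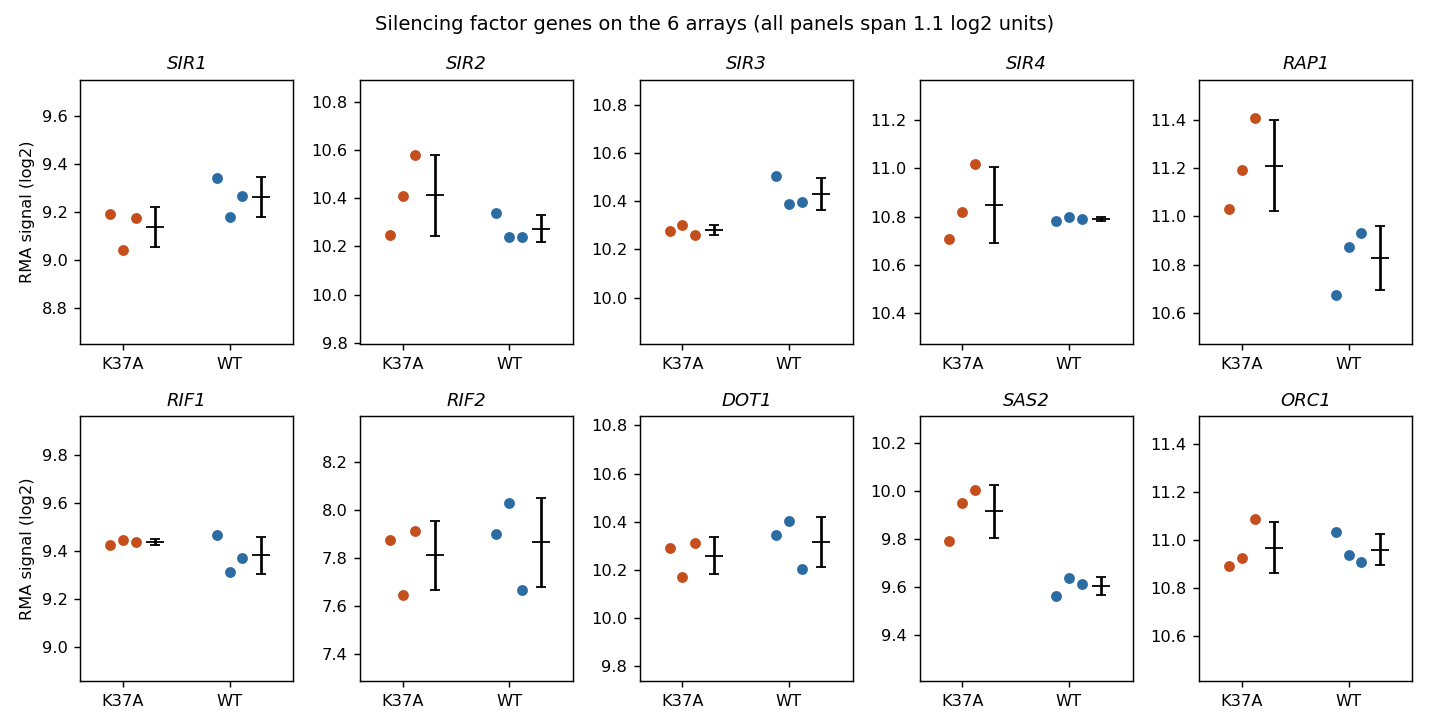
Log2 RMA signal of each silencing factor on the 3 H2B K37A arrays (orange, left) and the 3 wild-type arrays (blue, right), in replicate order, with the mean and SD of each strain in black and the same scale length in every panel. The strains separate for *SIR3*, *RAP1* and *SAS2* and overlap for the other 7 genes.

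Among the genes of the Sir proteins, none passed the test and the direction was mixed. *SIR2*, the NAD-dependent histone deacetylase, had log2 signals of 10.25, 10.41 and 10.58 in K37A cells and 10.34, 10.24 and 10.24 in wild-type cells. The first K37A array lay within the wild-type range and the third stood highest, and the difference was 0.14 (standard error 0.09, 95% interval -0.07 to 0.35, adjusted p = 0.290 from limma). It was 0.06 without K37A replicate 3 and 0.22 without K37A replicate 1 (adjusted p = 0.0648), and passed in neither case. *SIR3*, whose product binds deacetylated histone tails, had 10.28, 10.30 and 10.26 in K37A cells and 10.51, 10.39 and 10.40 in wild-type cells. Every mutant array was below every wild-type array, but the gap was small, a log2 difference of -0.15 or a ratio of 0.901 (standard error 0.04, 95% interval of the ratio 0.837 to 0.969), and it missed the threshold (adjusted p = 0.0623 from limma). With array weights the *SIR3* difference was -0.12 and passed (adjusted p = 0.0364 from limma).
*SIR4*, the scaffold that links Sir2 and Sir3, had log2 signals of 10.71, 10.82 and 11.02 in K37A cells against 10.78, 10.80 and 10.79 in wild-type cells. The wild-type arrays lay almost on top of each other (SD 0.0093, n = 3) and the mutant arrays fell on both sides of them (SD 0.16, n = 3). The difference of 0.06 (standard error 0.08) became -0.03 without K37A replicate 3, the array on which *SIR2* and *SIR4* were both highest. *SIR1*, which helps to establish silencing at the mating cassettes, had 9.19, 9.04 and 9.18 in K37A cells and 9.34, 9.18 and 9.27 in wild-type cells. These ranges overlap, and the difference was -0.13 (standard error 0.06, 95% interval -0.27 to 0.02, adjusted p = 0.194 from limma). Without K37A replicate 2 it was -0.08. The 95% intervals of the 4 genes together span ratios of 0.829 to 1.27.

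*RAP1*, which encodes the protein that binds telomeric repeats and silencers and also activates many ribosomal protein genes, showed the largest difference of the 10. Its log2 signals were 11.03, 11.19 and 11.41 in K37A cells and 10.67, 10.87 and 10.93 in wild-type cells. All mutant arrays were above all wild-type arrays, by 0.39 on average or a ratio of 1.31 (95% interval 1.09 to 1.57), yet the spread within each strain was wide (SD 0.19 and 0.13, n = 3 each) and the gene missed the threshold (standard error 0.11, adjusted p = 0.0591 from limma). *RAP1* passed when limma allowed the variance to follow the intensity (adjusted p = 0.0378), with array weights (adjusted p = 0.0144) and without K37A replicate 1 (log2 difference 0.47, adjusted p = 0.0290). Without K37A replicate 3, its highest array, the difference was 0.29.
Neither gene of the Rap1 partners passed the test. *RIF1*, whose product limits telomere length and the timing of replication, had 9.42, 9.45 and 9.44 in K37A cells and 9.46, 9.31 and 9.37 in wild-type cells, so that the mutant arrays lay inside the wild-type range. The difference was 0.05 (standard error 0.05, 95% interval -0.06 to 0.17), and it was 0.10 without wild-type replicate 1 and 0.02 without wild-type replicate 2. *RIF2*, also a negative regulator of telomere length, had log2 signals of 7.87, 7.65 and 7.91 in K37A cells and 7.90, 8.03 and 7.66 in wild-type cells. The lowest arrays of the strains, K37A replicate 2 and wild-type replicate 3, were almost equal, the ranges overlapped, and the difference was -0.05 (standard error 0.11, 95% interval of the ratio 0.802 to 1.16). With single arrays left out it was -0.15 (without wild-type replicate 3) to 0.03 (without wild-type replicate 2).

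*SAS2*, the catalytic subunit of the SAS-I histone acetyltransferase that acts on the tail of histone H4, was the silencing factor that passed the test. Its log2 signals were 9.79, 9.95 and 10.01 in K37A cells and 9.56, 9.64 and 9.61 in wild-type cells. The lowest mutant array was above the highest wild-type array, and the gene rose by 0.31, a ratio of 1.24 (standard error 0.06, 95% interval 1.12 to 1.37, adjusted p = 0.0285 from limma). The difference was 0.27 to 0.37 with each array left out in turn. The call, but not the direction, was lost without K37A replicate 2 (adjusted p = 0.108), wild-type replicates 1, 2 or 3 (adjusted p = 0.0894, 0.0956 and 0.0750) and with all probe sets of the array in the test (adjusted p = 0.0584), where limma called 2 to 135 and 249 *S. cerevisiae* probe sets in place of 798.
Neither of the other subunits of SAS-I passed as higher. *SAS4* had log2 signals of 10.32, 10.32 and 10.25 in K37A cells and 10.64, 10.57 and 10.54 in wild-type cells, and it fell by 0.29 (standard error 0.04, adjusted p = 0.0177 from limma). For *SAS5* the strains overlapped and differed by -0.03 (95% interval -0.20 to 0.13, adjusted p = 0.780 from limma). With *SAS5* subtracted on the same array, *SAS2* differed by 0.34 on the log2 scale and the strains did not overlap (exact permutation test, two-sided p = 0.1, the smallest possible with 3 arrays a strain). The gap was narrow, as K37A replicate 1 lay at -0.037 and wild-type replicate 3 at -0.050 after centring on the mean of the arrays.
The patterns most like that of *SAS2* over the 6 arrays, by the root mean square difference of signals centred on their mean, were those of *IBD2* (0.03), a spindle checkpoint gene, and of *UTP11* and *SGD1* (0.03 each), which act in ribosome biogenesis. *UTP11* had 10.79, 10.94 and 11.06 in K37A cells and 10.60, 10.71 and 10.65 in wild-type cells.
*DOT1*, the histone H3 methyltransferase of the nucleosome core, had log2 signals of 10.29, 10.17 and 10.31 in K37A cells and 10.35, 10.40 and 10.20 in wild-type cells. The ranges overlapped, and the difference was -0.06 (standard error 0.07, 95% interval of the ratio 0.861 to 1.07, adjusted p = 0.576 from limma). With single arrays left out it was -0.12 (without wild-type replicate 3) to -0.0145 (without K37A replicate 2), with -0.0151 without wild-type replicate 2, and with array weights it was -0.13.

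*ORC1*, the largest subunit of the origin recognition complex and an evolutionary relative of *SIR3*, had log2 signals of 10.89, 10.92 and 11.09 in K37A cells and 11.03, 10.94 and 10.91 in wild-type cells. The arrays were interleaved and the difference was 0.0077 (standard error 0.06, 95% interval of the ratio 0.904 to 1.12, adjusted p = 0.951 from limma). For scale, a gene with the standard error of *SIR3* needed a log2 difference of 0.17 to pass in this comparison, one with that of *ORC1* needed 0.25 and one with that of *RIF2* needed 0.42. Smaller differences of these genes could not be called with 3 arrays a strain.
With *ACT1*, the actin gene, subtracted on each array, the same 3 genes had strains that did not overlap. The differences were 0.40 for *RAP1*, 0.32 for *SAS2* and -0.14 for *SIR3* (two-sided p = 0.1 for each by an exact permutation test). *ACT1* itself differed by -0.0097 (standard error 0.03).

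**Figure D2:**
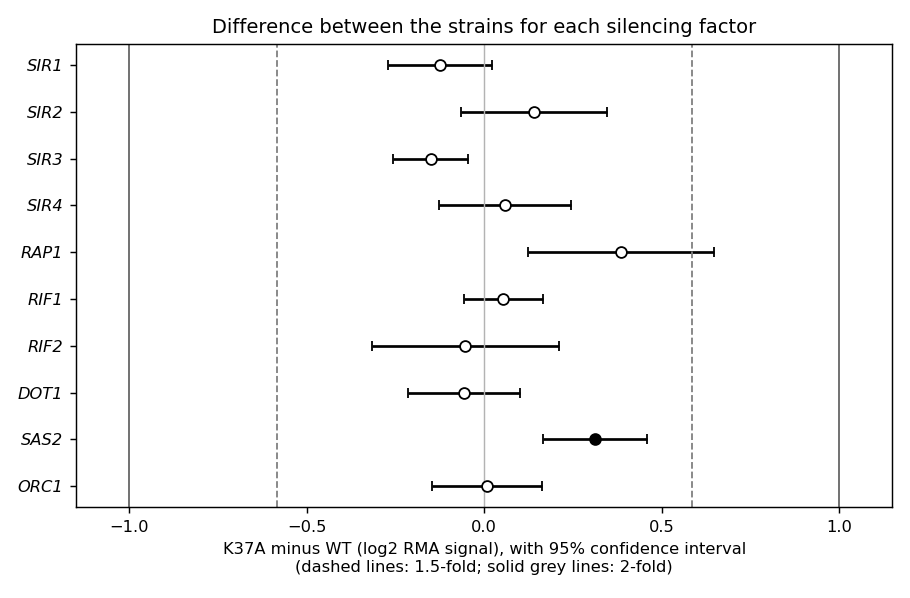
Log2 difference, K37A minus wild type, for each silencing factor, with its 95% confidence interval from limma; the filled point passed the adjusted p of 0.05 and the lines mark 1.5-fold and 2-fold. Only *SAS2* is filled, and the interval of *RAP1* alone, which reaches 0.65, crosses the 1.5-fold line.

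The next question was whether other genes of the same pathways moved. Of 98 further genes of silencing and telomere biology, 12 passed the test, 8 higher and 4 lower in H2B K37A cells, which is 12.2% against the background of 14.5%. Their median log2 difference was 0.03, none differed 2-fold, and 97 had a 95% interval inside 1.5-fold. The strains did not overlap for 48 of the 98, or 49%, against 42.1% of all probe sets. The mutant arrays were the higher ones for 34 of these and the lower ones for 14, against 1131 and 1181 over all probe sets. Without K37A replicate 3 the count was 8, 4 in each direction, where 501 probe sets passed over the genome. It was 25 without K37A replicate 1 and 3 without wild-type replicate 3, where 1140 and 135 passed over the genome. Without K37A replicate 2, wild-type replicate 1 or wild-type replicate 2 limma called 0, with 21 to 27 of the genes at an unadjusted p under 0.05. In the same order, limma called 7, 55 and 2 probe sets over the genome, in place of 798.
In the H2B ubiquitination and histone methylation group, 1 of 14 genes passed. It was *UBP10*, a deubiquitinase of H2B that takes part in telomeric silencing, with log2 signals of 12.03, 12.18 and 12.32 in K37A cells and 11.76, 11.83 and 11.85 in wild-type cells, a rise of 0.36 (adjusted p = 0.0336 from limma). In the group of boundary factors, *BDF1* and *SWR1*, both needed for deposition of the variant histone H2A.Z, rose by 0.25 and 0.27, and 7 of 9 did not pass. In chromatin assembly, 1 of 11 passed, *MSI1*, a subunit of the CAF-1 chaperone, which rose by 0.39 (adjusted p = 0.0177 from limma).
Of 15 genes of Ku, telomere anchoring and the nuclear envelope, *YKU80* alone passed. This subunit of the Ku heterodimer, which binds chromosome ends, had log2 signals of 8.81, 8.64 and 8.73 in K37A cells and 9.21, 9.10 and 9.12 in wild-type cells, and it fell by 0.41 to a ratio of 0.750 (95% interval 0.683 to 0.823, adjusted p = 0.0170 from limma). Its partner *YKU70* differed by -0.25 and missed the threshold (adjusted p = 0.0584 from limma). Among 15 genes of telomerase and end protection, *EST2*, the telomerase reverse transcriptase, rose by 0.49 (adjusted p = 0.0497 from limma) and *STN1*, of the complex that caps telomeres, by 0.18, whereas the nuclease gene *MRE11* fell by 0.32.
In ribosomal DNA silencing, 2 of 7 passed, or 28.6% of a small group against 14.5% over all probe sets. These were *TOF2* and the topoisomerase *TOP1*, higher by 0.27 and 0.33. Of 8 genes that supply NAD to Sir2, *NMA2* was lower by 0.17 and 7 did not pass. *SAS4* was the only call among 7 acetylation genes, and none of the 6 silencer-binding genes or of the 6 Sir2 paralogs and Sum1 partners passed.

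**Figure D3:**
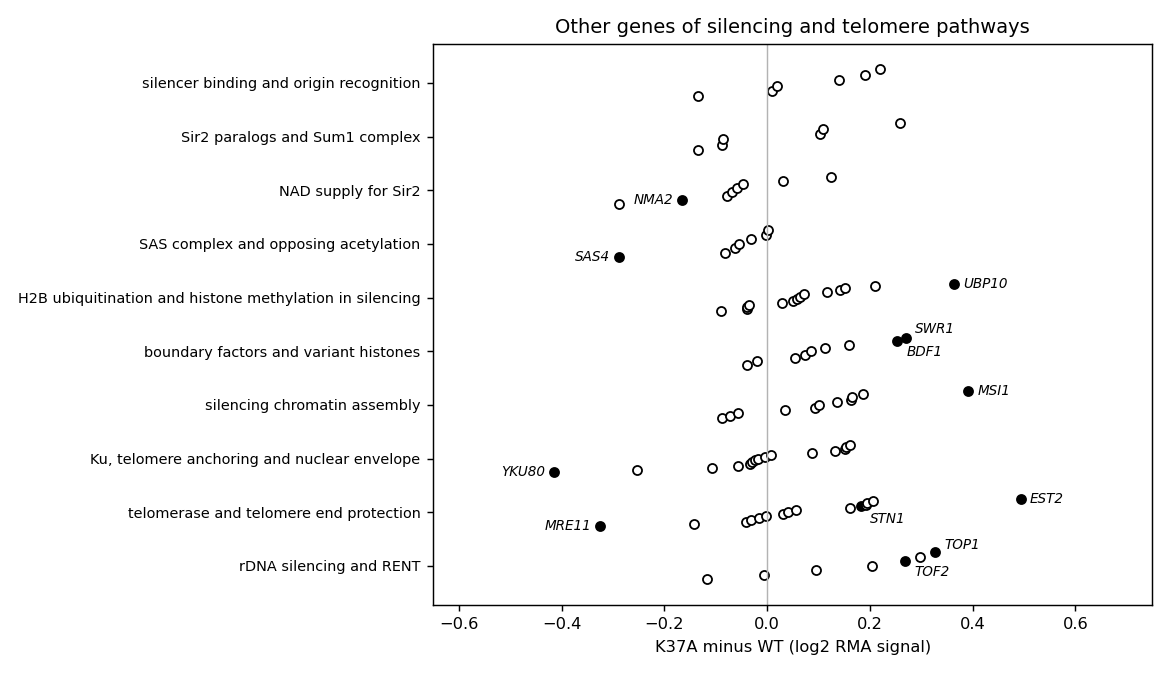
Log2 difference, K37A minus wild type, for 98 other genes of silencing and telomere pathways, grouped by role, with filled and named points for the 12 that passed an adjusted p of 0.05. The filled points lie on both sides of 0, from -0.41 for *YKU80* to 0.49 for *EST2*.

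The mating cassettes are a direct target of the Sir proteins, and *HMLALPHA1* is a read of HML because a *MAT*a strain has no other copy of it, although its probe set is of the shared kind. *HMLALPHA1* had log2 signals of 5.54, 5.64 and 5.53 in K37A cells and 5.41, 5.39 and 5.63 in wild-type cells. All 6 arrays were below the background level of 6.29, the strains overlapped and the difference was 0.10 (standard error 0.07, adjusted p = 0.406 from limma). The probe sets of *HMRA1* and *HMRA2* were bright, at 10.36 to 10.99, but the same sequences are expressed from *MAT*a, so they do not read HMR alone, and their differences were -0.05 and -0.03 (standard error 0.07 each).
Derepressed cassettes give a haploid cell the regulators of both mating types, so genes of cell identity were also read. None of 7 a-specific genes passed, and all 7 had means above the background level. Log2 means were 13.46 in K37A cells and 13.41 in wild-type cells for the a-factor gene *MFA1*, and 13.46 and 13.37 for the receptor gene *STE2*. The dimmest of the 7, *ASG7*, had 9.32 in K37A cells and 9.49 in wild-type cells. Of 4 alpha-specific genes, 1 was below the background level in both strains. This was *MF(ALPHA)1*, an alpha-factor gene, at 5.77 in K37A cells and 5.75 in wild-type cells. The other alpha-factor gene, *MF(ALPHA)2*, was above that level, at 7.94 in K37A cells and 7.88 in wild-type cells. The receptor gene *STE3*, at 8.47 and 8.67, and the agglutinin gene *SAG1*, at 10.32 and 10.10, were also above it, although the labels give *MAT*a cells. *STE3* did not pass (log2 difference -0.20, adjusted p = 0.0506 from limma) and *SAG1* rose by 0.22 (adjusted p = 0.0463 from limma).
Of 11 haploid-specific genes, which are off in cells with both mating types, 5 passed, 3 higher and 2 lower in H2B K37A cells. This is 45.5% of a small group, against 14.5% over all probe sets. *HO*, whose product cuts *MAT* during mating-type switching, rose by 0.83, *AXL1* by 0.31 and the kinase gene *FUS3* by 0.30, and *NEJ1*, which regulates end joining of DNA, fell by 0.27. Together 6 of the 25 mating-type genes passed, or 24.0% against the background of 14.5%. The count was 9 without K37A replicate 1 and 2 without K37A replicate 3, where 1140 and 501 probe sets passed over the genome. With any 1 of the other 4 arrays left out limma called 0, with 8 to 10 of the genes at an unadjusted p under 0.05. Over the genome limma called 2 to 135 probe sets in those settings, in place of 798.

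**Figure D4:**
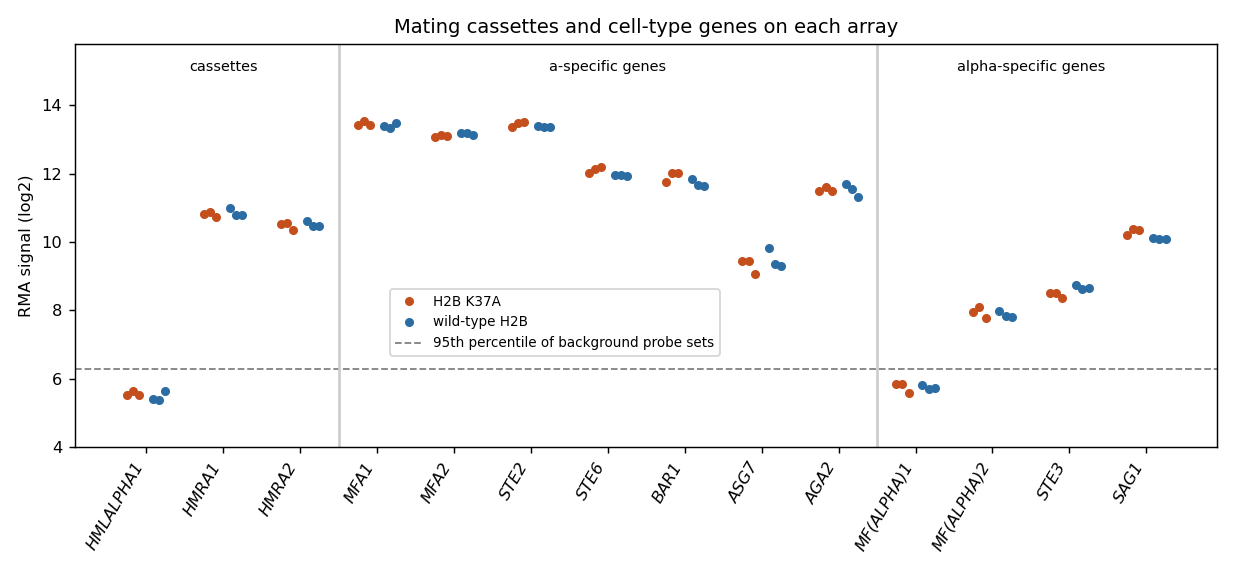
Log2 RMA signal of the mating cassettes, the a-specific and the alpha-specific genes on each H2B K37A array (orange, left) and wild-type array (blue, right), in replicate order, with a dashed line at the background level of 6.29. *HMLALPHA1* and *MF(ALPHA)1* lie below the line on all 6 arrays, and the a-specific genes lie between 9.05 and 13.54.

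Telomeric silencing acts on genes near the chromosome ends, which were taken as the 5 outermost protein-coding genes at each of the 32 ends by gene order in assembly R64. No genome build is named for the array, so order and not distance was used. Of 105 probe sets for 98 such genes, 26 passed the test, 12 higher and 14 lower in H2B K37A cells. This is 24.8%, against 14.5% over all probe sets, and the median log2 difference was -0.05. The strains did not overlap for 41.0% of these probe sets, against 42.1% of all. These genes also differed from the rest in how they were measured. The median log2 signal of their probe sets was 8.78 against 11.07. Of the 105 probe sets, 12 had a mean below the background level and 43 were of the kind shared between similar sequences. The part of these properties in the count was not tested, but the count was repeated without such probe sets. With dim probe sets filtered out, 25 of 93 passed, 12 higher and 13 lower, where 808 of 5411 passed over the genome. With probe sets of shared sequence left out, 20 of 62 passed, 8 higher and 12 lower, where 793 of 5370 passed over the genome. The strains did not overlap for 33 of these 62, or 53.2%, against 42.1% of all probe sets, shared ones included. With the probe sets of a gene averaged, 23 of 98 genes passed, 9 higher and 14 lower.
The largest differences that passed were falls in *MAL32*, a maltase gene (log2 difference -1.22), *YOL164W-A* (-0.87), *GEX1*, a glutathione exchanger gene (-0.84), and *YPS6*, an aspartyl protease gene (-0.79). *MAL32* and *GEX1* were read by probe sets of shared sequence, so these 2 falls may not belong to these genes alone. The largest rise that passed, named after its value was seen, was 0.42 on a probe set of *YLL066W-B*, and this gene gave 3 of the 12 rises, 2 of them on probe sets of shared sequence. Without K37A replicate 3 the count was 16, 8 in each direction, and it was 1 without K37A replicate 2, 3 without wild-type replicate 1, 1 without wild-type replicate 2 and 7 without wild-type replicate 3. Over the genome the count was 501 without K37A replicate 3, 7 without K37A replicate 2, and 55, 2 and 135 without wild-type replicates 1, 2 and 3.
With distance from the end, the share called was 19.0% for genes 6 to 10, 17.4% for genes 11 to 20, 12.7% for genes 21 to 50 and 14.3% for the 4062 probe sets farther in. In the 5 outermost genes 11.4% of probe sets were called higher and 13.3% lower in the mutant. In the next 5 these shares were 4.93% and 14.1%, and in the interior they were 6.62% and 7.66%, so calls of lower signal outnumbered those of higher signal in each. Among the silencing factors themselves, *SIR1* is gene 6 from its end of chromosome XI, *RIF2* gene 12 and *SIR3* gene 22 from that of XII, and *RIF1* gene 28 from that of II. None of these 4 passed the test.

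**Figure D5:**
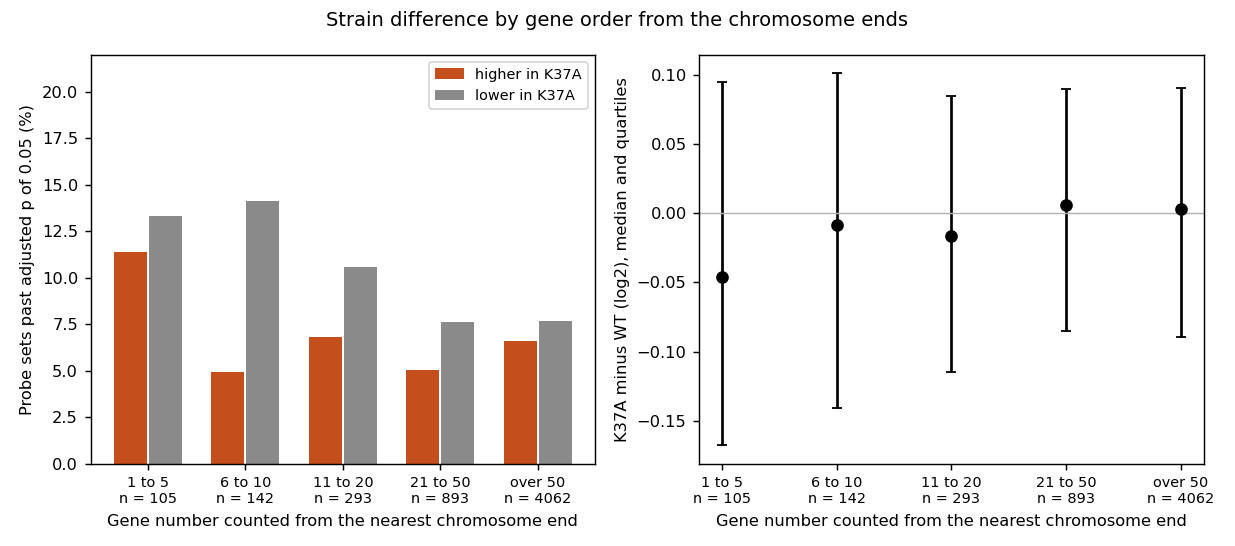
Left, percent of probe sets past an adjusted p of 0.05 that were higher (orange) or lower (grey) in H2B K37A cells, by gene number counted from the nearest chromosome end; right, median and quartiles of the log2 difference in the same bins. The outermost bin has the highest share of rises, 11.4%, and the lowest median, -0.05, and falls outnumber rises in every bin.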

How the data were processed

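RNA of 6 cultures was hybridized to Affymetrix yeast arrays. The authors deposited log2 signals per probe set. The submitters' processing notes name RMA and Affymetrix Expression Console, with versions not given in the sources used here. RMA subtracts background, quantile-normalizes the arrays and combines each set's probes into 1 value, so a shift shared by most transcripts is not seen. Names came from GEO's annotation of the platform and were matched by gene ID to the R64 gene table, and 5498 of 10928 were tested, none removed for a low signal. limma 3.58.1 in R 4.3.3 was fitted across all of them with strain as the only term, two-sided, with Benjamini-Hochberg adjustment and a threshold of 0.05. It was tested on simulated data. Single values were compared by exact permutation tests, with Python 3.11.15.

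The members and the lists were chosen with earlier results of these data known. Besides the members, the text names up to 4 genes per list that passed, those of largest difference, the 3 patterns most like a member that passed, *ACT1* and *HTB1*. *SAS5*, *YKU70*, *HTB2*, *STE3* and the other mating genes that did not pass were named after their values were seen. Of the mating names, those of *MAT* itself and *HMLALPHA2* were not analysed here. Alternatives were all probe sets, a filter on dim ones, repeated quantile normalization, centring arrays on their median, a block for replicate number, an intensity trend, array weights, means per gene, no shared probe sets, 10 outermost genes, the array median in place of *ACT1* and each array left out. No coordinates are given, since no build is named for the array.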

Additional observations from a re-analysis of the deposited data

How the results depend on the processing

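*SAS2* was higher in K37A cells and *RAP1* was higher and *SIR3* lower under all 15 alternatives run for each. The number of silencing factors past the test was 0 with all probe sets tested (limma, 3 at an unadjusted p under 0.05), 2 with an intensity trend and 3 with array weights, and it was 0 to 2 with each array left out, where the settings with 0 had 3 or 4 at an unadjusted p under 0.05. For the telomere-proximal, other silencing and mating-type genes the counts were 14, 3 and 1 with all probe sets tested and 1 to 28, 0 to 25 and 0 to 9 with each array left out. Over the genome, 249 probe sets passed with all probe sets tested, 1956 with array weights and 2 to 1140 with arrays left out, in place of 798. Array weights gave 41 other silencing genes and 10 mating-type genes, and taking 10 genes from each chromosome end gave 53 of 247 probe sets, 19 higher and 34 lower, a share of 21.5% against 24.8%. Relative to *ACT1*, the number of silencing factors whose strains did not overlap was 3 to 5 with each array left out. Some log2 differences near 0 changed sign. That of *ORC1* was -0.0211 with array weights and -0.0530 to 0.0461 with arrays left out, that of *RIF2* was -0.1536 to 0.0286 and that of *SIR4* was -0.0272 to 0.1286. The cause of these changes was not tested.

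Deviations from the strain mean correlated at 0.40, -0.29 and 0.23 across genes for arrays of the same replicate number. For arrays of unlike number the values ran from -0.50 to 0.36. With so few arrays these values cannot tell whether cultures of the same number shared a batch, and the labels name none. With the replicate block, 2 silencing factors passed, *SAS2* and *RAP1* (adjusted p = 0.0171 from limma), and 947 probe sets over the genome in place of 798. With 3 arrays a strain, differences that are small beside their standard error cannot be called, and *HMLALPHA1* and *MF(ALPHA)1* were not above background in either strain.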

Other observations

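Of 19 genes that lie next to a silencing factor and were measured, 3 passed the test, which is near the share over the genome. *FLO10*, a flocculin gene and the outer neighbour of *SIR1*, rose by 0.21 (standard error 0.03, adjusted p = 0.0216 from limma), *PCF11*, next to *SIR4*, rose by 0.20, and *APT2*, next to *DOT1*, fell by 0.15. The neighbours of *SAS2*, *DLT1* and *ECM16*, had differences of 0.14 (standard error 0.04, adjusted p = 0.0588 from limma) and 0.115 (standard error 0.04), and did not pass. These genes were looked at after the values of the silencing factors were known.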
